A study of Mus musculus with 20 samples.

Results

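Double-positive (DP) thymocytes and invariant natural killer T (iNKT) cells of the mouse thymus carried N6-methyladenosine (m6A) peaks at 4688 places that the peak tables of both cell types held in common. A place was taken as shared when a DP peak and an iNKT peak had at least 1 exonic base in common on the same strand, and when each was the other's best partner by the number of shared bases. The 4688 pairs held 34.9% of the 13450 DP peaks and 37.4% of the 12542 iNKT peaks. The pairs were chosen by the positions of the authors' peak calls in each cell type, so their overlap, fold enrichment, length and annotation are given as a description, with no test. The difference between genotypes within each cell type was not used to choose them.

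m6A is written onto nascent mRNA by a complex whose catalytic subunit is METTL3, with METTL14, WTAP, VIRMA, ZC3H13, CBLL1 and RBM15 as partners. The complex prefers a GGAC core, and its marks gather in 3' UTRs, near stop codons and in long exons, where YTH-domain proteins read them. DP thymocytes are rearranging and testing their T cell receptor alpha chain. iNKT cells branch off from them after selection on the lipid-presenting molecule CD1d, and in mice the transcription factor PLZF, encoded by Zbtb16, directs their development.

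The study profiled thymocytes of C57BL/6 mice aged 6 to 8 weeks by immunoprecipitating fragments of about 150 nt of polyadenylated RNA with an antibody to m6A, beside input libraries. DP cells were sorted as 7AAD-CD1d-Tet-CD4+CD8+ and iNKT cells as 7AAD-CD1d-Tet+TCRbeta+, which are live cells without and with binding of the CD1d tetramer. Each came from wild-type (WT) mice and from Mettl3fl/flCD4-cre mice, in which Cre is driven by Cd4 regulatory elements that are active from the DP stage on, so that the deletion concerns DP cells and all T cells derived from them. There were 20 libraries in 8 groups, with 2 libraries for each DP group and 3 for each iNKT group. The labels do not say whether a library came from 1 mouse or from pooled mice. Neither table has a peak named for Mettl3, so these values do not check the deletion.

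The files hold 1 table of peaks per cell type and no values per library. No spread between replicates can therefore be set beside any value, the depth of each library is unknown, and every value below is the authors' own or a summary of it. The 2 tables were made separately, so a fold enrichment in one is not on a scale shared with the other. Each peak has 1 fold enrichment for all libraries of its cell type, with no separate value for WT or Mettl3-deleted cells. The labels name m6A-seq and a variant for low input, m6A-LACE-seq, without saying which cells got which, and an effect of protocol cannot be told apart from one of cell type. As to the sorted cells, the iNKT table had peaks named for all 7 iNKT markers examined, among them Zbtb16, Tbx21 and Klrb1c. The DP table had peaks named for 4 of the 7 (Gata3, Id2, Il2rb and Slamf6). Of 8 DP markers, 4 were named in the DP table (Cd4, Cd8a, Cd8b1 and Rag1) and 3 in the iNKT table (Cd8a, Cd8b1 and Rag1). Markers of B cells, myeloid, stromal and red cells were named for 3 of 19 genes in the DP table (Cd79b, Csf1r, Pecam1) and 4 of 19 in the iNKT table (among them Cd79b, Itgax and Pecam1). Their part in the results was not tested.

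Bases under the pairs could be read where a pair reached into the promoter window of a RefSeq gene, which runs 50 bases past the start of the gene on mm10 (GRCm38.p6). Of 37 pairs with at least 50 shared bases in such windows, 9 (24.3%) held GGAC on the strand of the peak in the middle 50 bases. These middle stretches lay before the annotated start in 15 pairs, across it in 12 and after it in 10. Of all 32851 windows, 18.9% held GGAC in the 50 bases after the start and 16.1% in the middle 50 bases of the window, which lie before the start. Peaks without a partner held it in 17 of 76 cases in the DP table (22.4%) and in 121 of 568 in the iNKT table (21.3%). Runs of 24 bases are shown from 5 shared sites whose DP peaks were annotated to 5' UTRs, with GGAC in capitals. They were chosen because they span responses to Mettl3 deletion described further on. The class is that of the peak, and a run can lie before the annotated start of its gene. The genes encode a NEDD8-conjugating enzyme (Ube2m), an RNA-binding protein (Syncrip), a histone acetyltransferase (Ep300), a phosphatase of MAP kinases (Dusp1) and a transcription factor (Yy1).
Ube2m, chr7:13038062-13038085, minus strand: ggagagcggcGGACctgtaaaggc
Syncrip, chr9:88482519-88482542, minus strand: gactcggcagGGACtggggacggg
Ep300, chr15:81586213-81586236, plus strand: agaaggaggaGGACagcgccgagg
Dusp1, chr17:26508471-26508494, minus strand: gcgctccgtcGGACgagcgcgcag
Yy1, chr12:108793150-108793173, plus strand: cggggaagcaGGACaggcagcggc
A match of the letters GGAC is a description and does not locate the methylated base.

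Such runs could be read at 10 shared sites, of which 9 had the higher fold enrichment in iNKT cells and 1 (Ptch1, 15.7-fold in DP and 6.63-fold in iNKT cells in the authors' deposited tables) in DP cells. At the 5 sites shown the authors' deposited tables listed a higher fold enrichment of immunoprecipitate over input in iNKT than in DP cells. The authors' deposited tables gave Ube2m 2.48-fold in DP and 11.0-fold in iNKT cells, and Syncrip 5.86-fold and 52.8-fold. They gave Ep300 2.1-fold and 6.63-fold, Dusp1 4.56-fold and 72.7-fold, and Yy1 2.01-fold and 16.8-fold in the authors' deposited tables.

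The pairs were spread over 3327 RefSeq genes. Of these, 2443 had 1 pair, 638 had 2, 170 had 3 and 76 had 4 or more. In 73.7% of pairs (3455) the shared bases lay inside the gene that the authors' deposited tables name, on the same strand. In 23.8% (1115) they lay inside another RefSeq gene on that strand. For 101 pairs no RefSeq gene covered the bases on that strand, and 17 had names that RefSeq did not match. Genes are called here by the RefSeq gene that holds the bases, with the name in the authors' deposited tables where it differs. Among all 4688 pairs, 199 (4.24%) had another pair over the same bases on the opposite strand, so the strand of their reads cannot be told apart.

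Sharing a gene was more frequent than sharing a place. The tables named 4389 genes in common, and 3332 of them (75.9%) had a pair. Ignoring the requirement of mutual best partners, 4898 DP peaks (36.4%) and 5360 iNKT peaks (42.7%) touched a peak of the other table. Kmt2a, a histone H3 lysine methyltransferase, had the most pairs of any gene, 8, and its relative Kmt2d had 7. The zinc-finger transcription factors Hivep2 and Hivep3 also had 7 each, and Hivep3 (schnurri-3) is known for a role in iNKT development.

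Matched peaks differed in extent. A DP peak in a pair had a median exonic length of 360 nt (quartiles 235 to 570) and an iNKT peak 240 nt (180 to 330). The DP peak was the longer in 3153 pairs (67.3%), the iNKT peak in 1345 (28.7%), and 190 were equal. The median difference, iNKT minus DP, was -119 nt. The peaks shared a median of 180 bases, which was 50.3% of the DP peak and 83.4% of the iNKT peak. In 1888 pairs (40.3%) the iNKT peak lay wholly inside the DP peak, and in 830 (17.7%) the reverse held. Only 32 pairs had identical blocks. Peaks with no partner were shorter, with medians of 211 nt in the DP table and 151 nt in the iNKT table. Among pairs whose peaks were in 1 block each (3333), the centre of the iNKT peak lay 3' of the DP centre in 2061 (61.8%) and 5' of it in 1151 (34.5%), with a median shift of 44 nt. The shift was in the same direction for pairs in 3' UTRs (64.3% and 31.8%) and in exons (59.6% and 37.0%). In 5' UTRs 82 of 172 pairs lay 3' and 81 lay 5'. Of single-block peaks, 90.3% in the DP table and 92.6% in the iNKT table had a length within 1 nt of a multiple of 30 nt, which sets how finely such shifts can be read.

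**Figure D1:**
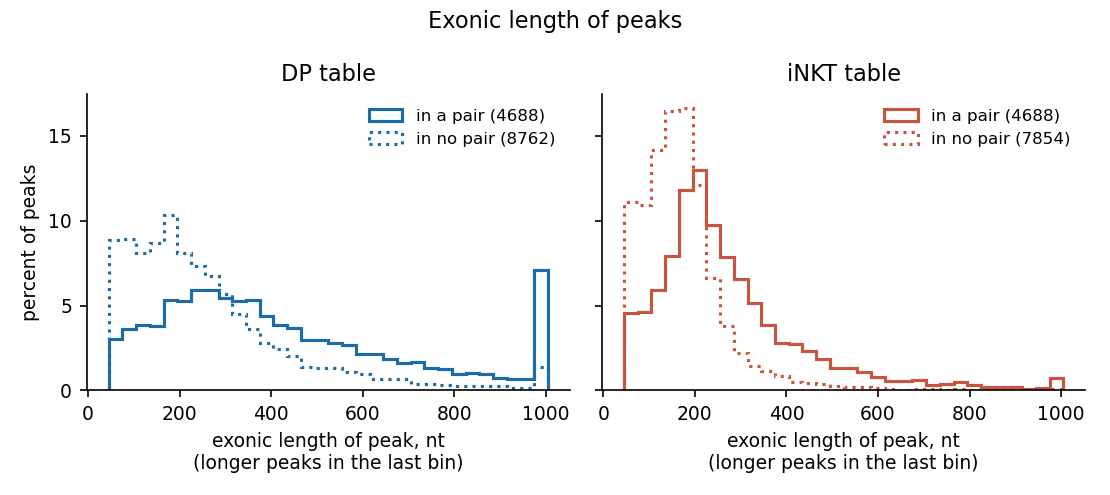
Exonic length of peaks in nt (horizontal axis) against the percent of peaks (vertical axis), for peaks in a pair (solid line) and in no pair (dotted line), in the DP table (left) and iNKT table (right), with all longer peaks in the last bin. Paired peaks are longer than unpaired peaks in both tables, with medians of 360 against 211 nt in DP and 240 against 151 nt in iNKT cells.

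The longest shared stretches were at 4 genes whose names differ from those in the authors' deposited tables. The 3' UTR peaks of Spata13, a guanine nucleotide exchange factor (named C1qtnf9), shared 1557 bases. Peaks of the chromatin remodeller Srcap (named Tmem265, with a second pair on the opposite strand) shared 1440, those of the BAF complex subunit Arid1a (named Pigv) 1379, and those of the zinc-finger gene Zc3h4 (named Tmem160) 1290. At the other end, 140 pairs (2.99%) shared exactly 1 base. A430088P11Rik, AI662270, Abtb2 and Acp5 are such pairs, with fold enrichments in the authors' deposited tables of 3.49, 3.32, 2.36 and 2.17 in DP cells and of 8.39, 4.61, 5.18 and 1.6 in iNKT cells. Just outside the rule, a single pair of peaks, on the mitochondrial chromosome, adjoined with 0 bases between them and none shared. In the authors' deposited tables its fold enrichment was 2.86 in DP and 6.58 in iNKT cells.

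Fold enrichment, which is not given for WT cells alone, was listed higher in iNKT cells at shared places, but so was that of the iNKT table as a whole. Its median over the pairs was 5.54 in the DP table and 7.89 in the iNKT table, and over all peaks 4.70 and 8.32. The iNKT value was the higher in 2904 pairs (61.9%), and the median log2 ratio, iNKT over DP, was 0.52 (95% interval of the median 0.465 to 0.585, over pairs, which are not replicates). When each table was divided by the median of all its peaks, the sign turned and the median log2 ratio was -0.30. By rank within its own table, the iNKT peak stood higher in 1954 pairs (41.7%), and the median difference in percentile was -7.62. Paired peaks thus stood at a median percentile of 57.6 among DP peaks and of 48.8 among iNKT peaks.

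A peak that was strong in one cell type was often of ordinary strength in the other. Across the 4688 pairs, Spearman's rho of the fold enrichments was 0.15 and Pearson's r of their log2 values 0.14. Peaks that overlap more closely were more alike: rho was 0.25 over 1999 pairs that shared at least 50% of both peaks and 0.34 over 410 pairs that shared at least 80% of both. It was 0.42 over the 190 pairs of equal length and 0.05 over the 140 pairs with 1 shared base. These points share libraries and peak calls within each table. The median iNKT fold enrichment was 5.22 where the DP fold was under 2 (191 pairs) and 6.65 for DP folds from 2 to 4. It was 7.83 for folds from 4 to 8, 9.99 for folds from 8 to 16, and 9.47 above 16 (480 pairs). Of the pairs above percentile 90 of the DP table, 12.1% (68) were also above percentile 90 of the iNKT table, which was 14.8% of the pairs there. Over all pairs, 9.77% lay above that percentile of the iNKT table and 11.9% above that of the DP table, close to these shares.

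**Figure D2:**
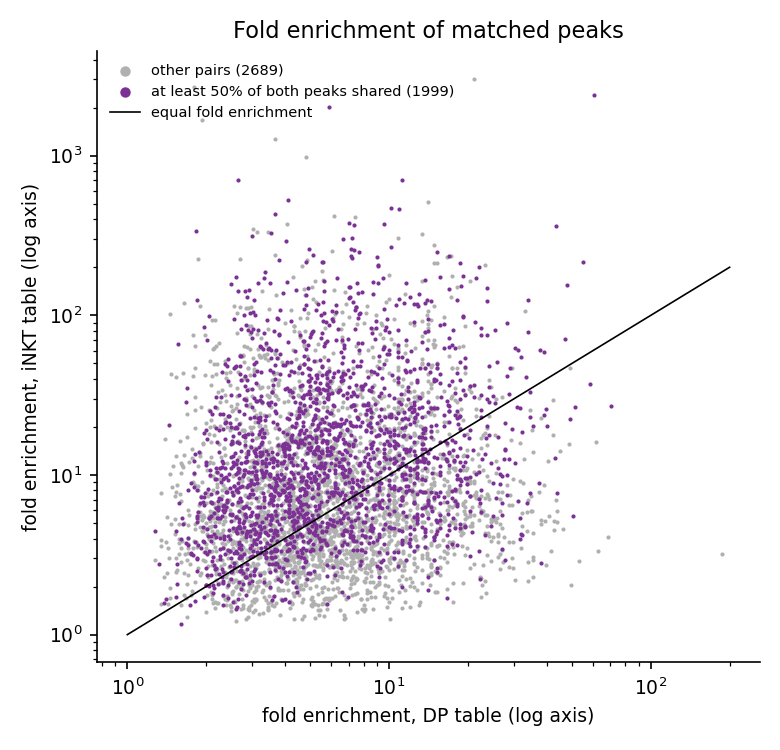
Fold enrichment of each matched peak in the DP table (horizontal, log axis) against the iNKT table (vertical, log axis). Each point is 1 of 4688 pairs, purple where at least 50% of both peaks is shared (1999), and the line marks equal values. Points scatter widely about the line, with 2904 above it.

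The ratio moved with relative length. Where the DP peak was at least 2 times longer, the median log2 ratio was -0.49, and where the iNKT peak was at least 2 times longer it was 1.97. Among pairs of equal length it was 0.83, with the iNKT value higher in 145 of 190. It also differed by position. The median log2 ratio was 1.08 for the 267 pairs annotated to a 5' UTR in both tables, 0.67 for the 2295 in 3' UTRs and 0.38 for the 1634 in other exons. By rank, the 5' UTR pairs stood higher in iNKT cells (median percentile difference 6.38), while 3' UTR pairs (-5.70) and exon pairs (-10.2) stood lower.

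The most enriched places in both cell types included Hras, Wdr66, Thap7 and Zfp652. The 3' UTR peak of the small GTPase Hras (chr7:141190926-141191105 in DP cells) was 21.1-fold enriched in DP and 3040-fold in iNKT cells in the authors' deposited tables. Wdr66 had 60.9-fold and 2400-fold, the transcription factor Thap7 43.5-fold and 365-fold, and the zinc-finger gene Zfp652 55.1-fold and 215-fold in the authors' deposited tables. Ubtd1 (named Ankrd2) and the transcript A730017L22Rik completed the top 6 by geometric mean. For Ubtd1 the authors' deposited tables listed 5.91-fold in DP and 2020-fold in iNKT cells, and for A730017L22Rik 11.2-fold and 705-fold. The iNKT values of these 6 lie far above the median of their table, and counts of reads behind them were not analysed here.

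Among 1436 pairs that shared at least 50% of both peaks and had a peak FDR of at most 1e-05 in both tables, Ubtd1 had the highest iNKT-to-DP ratio. Next was an exon of Kdm6b, which encodes a histone H3 lysine 27 demethylase (chr11:69405541-69405811 in DP cells). The authors' deposited tables listed it at 2.64-fold in DP and 704-fold in iNKT cells, percentiles 21.3 and 99.8 of their tables. Mrtfa (named Sgsm3) and Srf, a coactivator and the transcription factor it binds, were both in this group. The authors' deposited tables gave Mrtfa 4.11-fold and 531-fold, and Srf 3.53-fold and 330-fold. Ccdc124 had 3.68-fold and 428-fold and the RNA polymerase I factor Taf1c 2.61-fold and 175-fold in the authors' deposited tables.

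The reverse pattern was smaller in size. Tmem156 had the lowest ratio, with 38.1-fold in DP and 2.8-fold in iNKT cells in the authors' deposited tables. Next came Lsp1, a leukocyte F-actin-binding protein, with 22.2-fold and 2.22-fold, and Rrp1b, a nucleolar protein, with 27.8-fold and 2.93-fold in the authors' deposited tables. Pik3ca, the catalytic subunit p110 alpha of PI3 kinase, followed with 50.6-fold and 5.56-fold, Lactb (named Rps27l) with 31.5-fold and 3.99-fold, and the coronin Coro2a (named Trim14) with 26.9-fold and 3.43-fold in the authors' deposited tables. The DP peaks of these 6 stood between percentiles 96.6 and 99.9 of their table. The iNKT peaks stood between percentiles 5.6 and 22.7, except that of Pik3ca at 35.6.

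Annotation of the 2 peaks of a pair mostly matched. The position class was the same in 4204 pairs (89.7%): 2295 in 3' UTRs, 1634 in exons and 267 in 5' UTRs. It differed in 484 (10.3%), most often 3' UTR in DP and exon in iNKT cells (184), 5' UTR and exon (131), and exon and 3' UTR (110). DP peaks of these pairs had a median length of 538 nt, against 359 nt where the class was the same. Wdr66 (exon in DP, 5' UTR in iNKT), Adnp2, Peak1 and Fam222a (named Trpv4) were the most enriched pairs of differing class. Both tables gave the same gene name in 4591 of 4680 named pairs (98.1%).

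The chance of having a partner differed most by class for 5' UTR peaks. Of DP peaks, 40.6% in 3' UTRs, 37.4% in 5' UTRs and 28.8% in other exons were in a pair. Of iNKT peaks, 42.8% in 3' UTRs and 39.0% in exons were in a pair, but only 302 of 1843 in 5' UTRs (16.4%). Among iNKT exon peaks the share was 48.2% for internal exons, 39.9% for last, 28.9% for first and 17.9% for single exons. The DP shares for these 4 lay between 27.8% and 34.3%.

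The comparison of genotypes asks how methylation at the same place responded to Mettl3 deletion in each cell type. The files give a log2 fold change between genotypes and its FDR for each peak, and its sign is not stated. A negative value is likely lower methylation in Mettl3-deleted cells, because the authors' gene lists hold 4336 of 4337 DP genes with a negative peak and 5339 of 5343 iNKT genes with one, and none of the 2237 DP and 1326 iNKT genes with positive peaks only. Lower and higher are used here in this likely sense, and a peak passed at an FDR of 0.05. Over all DP peaks 0.743% passed as lower and 0.483% as higher (1.23% in all), and over all iNKT peaks 19.8% and 5.84% (25.7%).

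In iNKT cells, calls of lower methylation were frequent at shared places. Of the 4688 iNKT peaks in a pair, 1834 (39.1%, 95% binomial interval 37.7 to 40.5 by Wilson's method, counting error only) passed as lower and 118 (2.52%) as higher. Of the 7854 without a partner, 654 (8.33%) passed as lower and 615 (7.83%) as higher. The pairs therefore held 73.7% of all iNKT peaks called lower and 16.1% of those called higher. The median log2 fold change was -1.90 in pairs and -0.52 outside them. The shares in pairs were close to each other in the 3 position classes, at 39.0% in 3' UTRs, 41.4% in 5' UTRs and 39.0% in exons. Peaks without a partner but named for a gene with some DP peak had 10.1% lower and 7.84% higher, and those of genes with no DP peak 5.85% and 7.82%.

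The depth of overlap went with the share called. Of the 140 pairs with 1 shared base, 13 (9.29%) passed as lower and 10 (7.14%) as higher in iNKT cells, near the values of peaks with no partner. Where under 50% of 1 or both peaks was shared, 34.4% passed as lower, and where at least 50% of both was shared, 45.4% did. Paired peaks were also longer and had smaller peak FDRs than unpaired ones, so strength and pairing move together, and the part of strength in these shares was not tested beyond the values that follow. Among the strongest of 4 groups of iNKT peaks by peak FDR, 73.4% of 2021 paired and 43.5% of 1115 unpaired peaks passed as lower. In the next group these shares were 22.7% and 7.85%, then 4.95% and 1.26%, and in the weakest 0.61% and 0.0%. From the strongest group to the weakest, 1.83%, 3.11%, 3.14% and 2.66% of paired peaks passed as higher, and 7.98%, 9.14%, 9.58% and 5.36% of unpaired peaks. The same held by exonic length: over 300 nt, 62.5% of paired and 34.1% of unpaired peaks passed as lower.

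**Figure D3:**
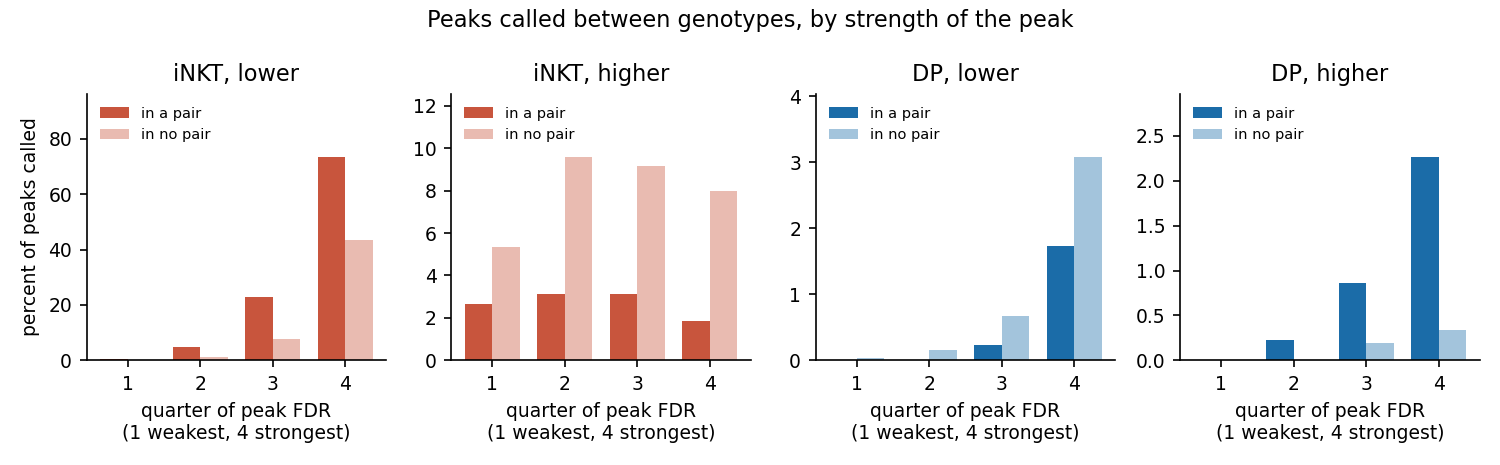
Percent of peaks called between genotypes at an FDR of 0.05 (vertical axes, each panel with its own scale) in 4 groups of peak FDR from weakest to strongest (horizontal axes), for peaks in a pair (dark bars) and in no pair (pale bars), with no error bars because no values per library exist. Lower calls in iNKT cells and higher calls in DP cells are the more frequent among paired peaks, and higher calls in iNKT cells among unpaired peaks.

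In DP cells few peaks passed, and the shared places held most of those that were higher. Of the 4688 DP peaks in a pair, 36 (0.768%) passed as lower and 56 (1.19%) as higher. Of the 36, 32 were in pairs that shared under 50% of 1 or both peaks. Where at least 50% of both was shared, 4 of 1999 (0.200%) were lower and 26 (1.3%) higher. Of the 8762 without a partner, 64 (0.730%) passed as lower and 9 (0.103%) as higher. Pairs thus held 86.2% of the DP peaks called higher and 36.0% of those called lower. The median log2 fold change was 0.083 in pairs and -0.059 outside them. Among the strongest DP peaks by FDR, 1.74% of paired and 3.08% of unpaired passed as lower, and 2.26% and 0.342% as higher. The changes were small: the median log2 fold change of the pairs called lower was -0.38, and with a minimum of 2-fold 1 pair (0.021%) remained lower and 0.384% higher.

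At the same place the values of the cell types did not go together. The log2 fold change was below the DP value in iNKT cells in 3858 pairs (82.3%), with a median difference of -2.06. Spearman's rho of the paired values was 0.01 across 4688 pairs. Of the 1834 pairs called lower in iNKT cells, 797 (43.5%) had a negative DP value, near the 42.7% (2003) of all pairs, and their median DP log2 fold change was 0.055. From the other side, 34 of the 36 pairs called lower and 45 of the 56 called higher in DP cells were negative in iNKT cells, as were 81.9% of all pairs. In 3116 pairs (66.5%) the iNKT value was at least 2-fold lower, called or not, while 264 DP values (5.63%) were at least 2-fold lower and 442 (9.43%) at least 2-fold higher. DP groups had 2 libraries each and iNKT groups 3, and the difference in responses between cell types was not tested.

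Of 68 pairs that passed in both tables, 33 (48.5%) had the same sign and 35 the opposite sign. The share with the same sign was 23.1% (6 of 26) where at least 50% of both peaks was shared and 16.7% (1 of 6) where at least 80% was. Lower in both were 27 pairs, and 6 were higher in both. The opposite group was nearly all of 1 kind, with 34 higher in DP and lower in iNKT cells and 1 the other way. Only in iNKT cells 1773 pairs passed as lower and 111 as higher, only in DP cells 8 and 16, and 2712 passed in neither. With a minimum change of 2-fold, 5 pairs still passed in both, 0.0% of them with the same sign.

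**Figure D4:**
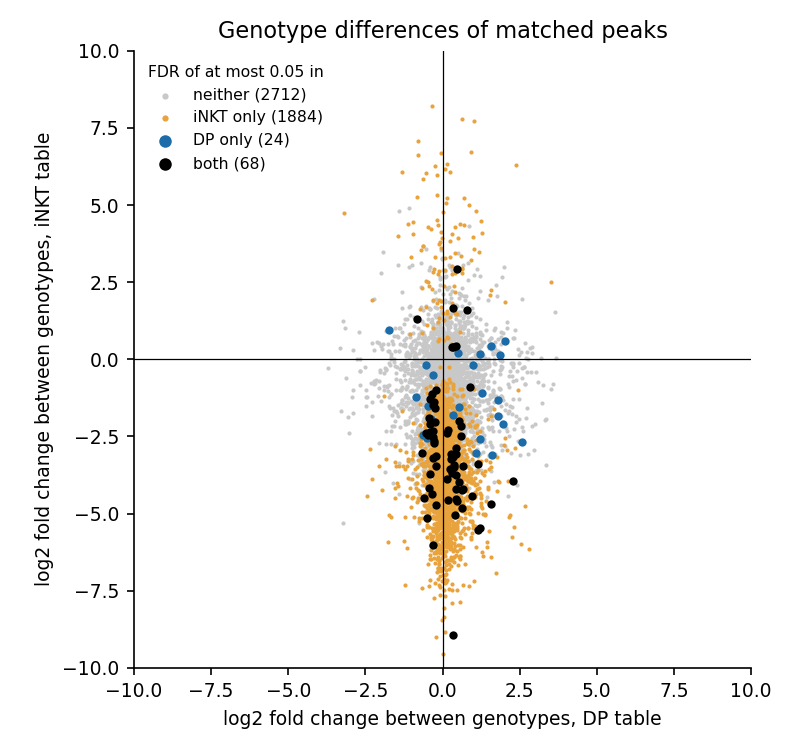
Log2 fold change between genotypes of each matched peak in the DP table (horizontal) and iNKT table (vertical), coloured by where the FDR was at most 0.05. DP values run from -3.70 to 3.69 and iNKT values from -9.55 to 8.22, with most iNKT values below 0, and the 68 pairs called in both tables (black) lie on either side of the vertical line.

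The pairs of the same sign with the largest changes included Ube2m, 1 of the sites with a sequence shown above. Its log2 fold change in the authors' deposited tables was -0.48 in DP (FDR 0.041) and -2.44 in iNKT cells (FDR 0.001). Both tables thus listed a loss at this site, and it was the larger in iNKT cells. The helicase gene Dhx16 had -0.61 (FDR 8.1e-06) and -4.51 (FDR 1.5e-06) in the authors' deposited tables, and the centriole gene Cntrl -0.49 and -5.16. Atf7ip, a partner of the methyltransferase SETDB1, had -0.66 and -3.05, and the anchoring protein gene Akap13 -0.54 and -2.38 in the authors' deposited tables. Sema7a, a membrane semaphorin, was the exception in being higher in both, with 0.80 and 1.59 in the authors' deposited tables. The shared bases were 7.95% of the DP peak at Akap13, 17.2% at Atf7ip, 26.9% at Dhx16 and 27.4% at Cntrl, against 79.2% at Sema7a and 90% at Ube2m.

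Opposite changes were led by Gna12, a G protein alpha subunit (named Amz1), with 2.27 in DP (FDR 0.035) and -3.95 in iNKT cells (FDR 0.012) in the authors' deposited tables. The kinase gene Snrk had 1.58 (FDR 0.00055) and -4.68 (FDR 0.00016), and the palmitoyltransferase gene Zdhhc20 1.16 (FDR 0.00089) and -5.54 (FDR 1.0e-12) in the authors' deposited tables. Hs6st1, a heparan sulfate sulfotransferase, had 1.22 and -5.46 in the authors' deposited tables, and is one of the places with a mirrored pair on the other strand. Sde2 had 1.16 and -3.38 and the xylosyltransferase gene Xylt2 0.96 and -4.42 in the authors' deposited tables. All 6 were annotated to a 3' UTR in DP cells, as were 52.9% of all paired DP peaks and 33 of the 56 called higher.

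**Figure D5:**
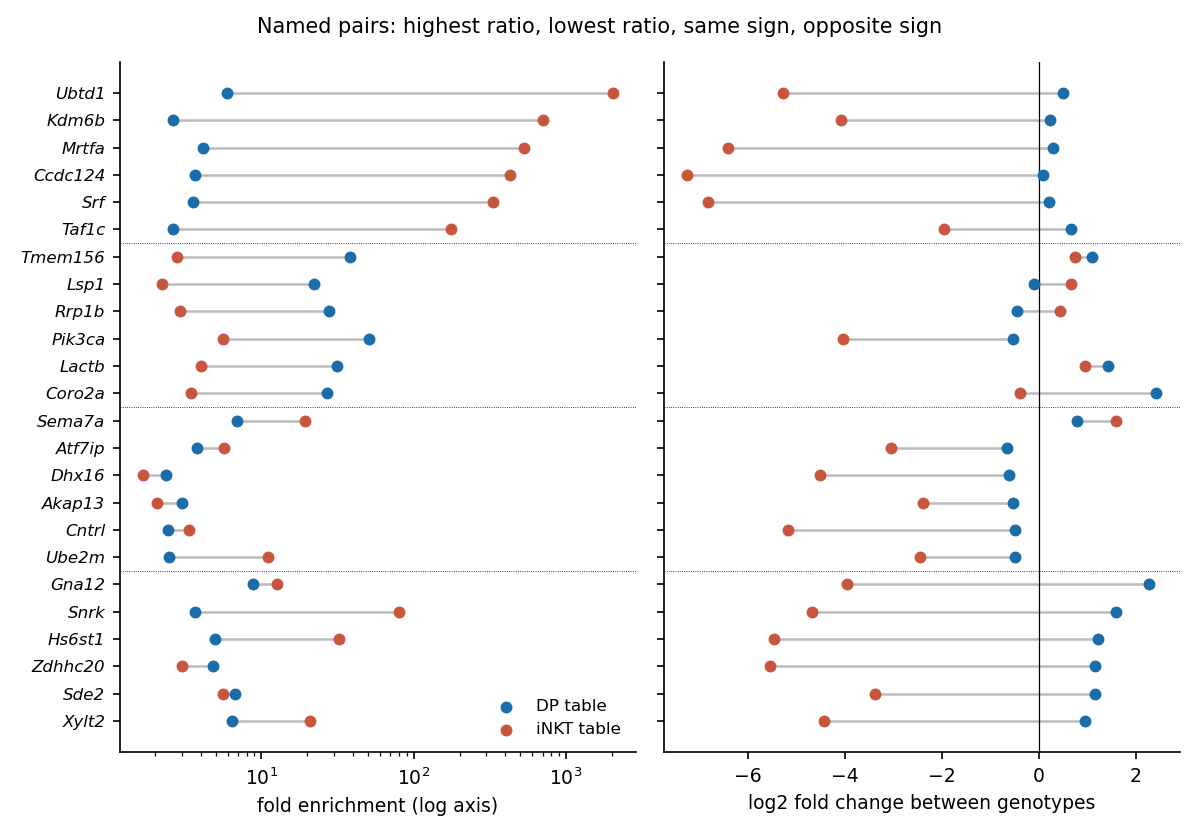
Fold enrichment (left, log axis) and log2 fold change between genotypes (right) of 24 named pairs in the DP table (blue) and iNKT table (red), in 4 blocks of 6 from top to bottom: highest and lowest iNKT-to-DP ratio of enrichment, and same and opposite sign between genotypes. In the opposite block every DP point lies right of 0 and every iNKT point left of it.

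Of the pairs called in iNKT cells alone, the largest fall was at Pik3r5, a regulatory subunit of PI3 kinase gamma (named Pik3r6). Its log2 fold change in the authors' deposited tables was 0.0085 in DP and -9.55 in iNKT cells (FDR 2.5e-50). Zc3h18 had -0.20 and -9.00, the chaperone gene Hsp90aa1 0.068 and -8.84, and Trim44 -0.0063 and -8.44 in the authors' deposited tables. The DP values of these 4 places lay near 0. The largest rises in iNKT cells were at Cdv3 (8.22), Xist (7.78), the adaptor gene Tank (7.73) and Ccdc43 (7.08), with DP values of -0.35, 0.64, 1.02 and -0.78 in the authors' deposited tables. The shared stretch at these 4 places was 1 base for Xist and Ccdc43, 31 bases for Tank and 120 for Cdv3.

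Of the pairs called in DP cells alone, Ssh2, a cofilin phosphatase, rose most, with 2.58 in DP (FDR 0.00015) and -2.69 in iNKT cells (FDR 0.27) in the authors' deposited tables. Rxrb, the retinoid X receptor beta, rose by 2.03, the clock gene Cry2 (named Mapk8ip1) by 1.96 and Toe1 by 1.85 in the authors' deposited table of DP cells. The largest falls were at the transcript AI662270 (-1.74), the splicing factor gene Cdc5l (-0.86), Fbxo38 (-0.63) and the non-muscle myosin gene Myh9 (-0.52) in the authors' deposited table of DP cells. AI662270 and Cry2 share 1 base between the tables. The shared bases were 4.71% of the DP peak at Cdc5l, 14.8% at Fbxo38, 16.05% at Toe1 and 39.1% at Myh9. They were 70.4% at Ssh2 and 67.04% at Rxrb. At each of the named falls most of the DP peak thus lay outside the shared place.

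Enrichment and loss went together in iNKT cells. Where the fold enrichment was at least 4-fold higher in iNKT than in DP cells, 606 of 1003 pairs (60.4%) passed as lower. The share was 36.9% for pairs up to 4-fold higher in iNKT cells, 30.3% for pairs up to 4-fold higher in DP cells, and 24.2% (58 of 240) beyond that. Both columns come from the iNKT libraries and are not independent of each other. Srf (-6.81), Mrtfa (-6.40), Ccdc124 (-7.25) and Kdm6b (-4.08) passed as lower in the authors' deposited table of iNKT cells, while Ubtd1 (-5.27, FDR 0.16) and Taf1c (-1.96, FDR 0.093) did not. Of the 6 with the lowest ratio, Pik3ca was lower (-4.03) and Lsp1 higher (0.66) in the authors' deposited table of iNKT cells, and the other 4 did not pass.

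Members of the m6A machinery were themselves methylated at shared places. Of 9 writer genes, 7 had a pair, with 12 pairs in all: Cbll1, Mettl16, Rbm15, Rbm15b, Virma, Wtap and Zc3h13. The lists of genes used from here on were chosen with earlier results of these data known, and their counts are a description. In iNKT cells 8 of the 12 (66.7%) passed as lower, in 6 genes, and none as higher, beside 39.1% and 2.52% over all pairs. None passed in DP cells, beside 0.768% lower and 1.19% higher over all pairs. The median log2 fold change of the 12 was 0.14 in DP cells, against -4.46 in iNKT cells. Zc3h13, which holds the writer in the nucleus, had 3 pairs with iNKT values of -4.24, -4.79 and -6.97 and DP values of 0.64, 0.097 and 0.098 in the authors' deposited tables. Virma, the scaffold subunit, had -4.34 in iNKT and -0.17 in DP cells at one pair, and 0.81 and 1.24, called in neither, at another pair of 31 shared bases in the authors' deposited tables. Wtap, which recruits the enzyme to its substrates, had -4.69 at its called pair (named Acat2) and -1.38 (FDR 0.73) at the other in the authors' deposited table of iNKT cells. Rbm15 had -4.64 at 1 of 2 pairs, and Rbm15b -4.57 in the authors' deposited table of iNKT cells. The shared bases were 12.8% of the DP peak at the called pair of Rbm15 and 21.3% at Rbm15b. They were 40.8% at that of Wtap, 40.1% at that of Virma, 85.8% at Cbll1, and 100%, 39.7% and 32.3% at Zc3h13. The iNKT peaks of Rbm15b (2.04-fold) and of the called Wtap pair (2.57-fold) stood at percentiles 4.1 and 8.66 in the authors' deposited table. Cbll1, an E3 ligase-like subunit, had -5.47 in the authors' deposited table of iNKT cells, but lies under a mirrored pair, so its strand and gene are uncertain. Mettl16, a separate methyltransferase, shared 1 base and was not called.

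Readers and erasers gave 10 pairs in 6 of 15 genes, of which 8 passed as lower in iNKT cells and none in DP cells. Over all pairs these shares were 39.1% and 0.768%. The nuclear reader gene Ythdc1 had 10-fold and 12.1-fold enrichment, with 0.14 in DP and -5.49 in iNKT cells between genotypes in the authors' deposited tables. Fmr1 had -0.44 and -5.15, and Prrc2a -0.037 and -3.15 in the authors' deposited tables. The shared bases were 27.3% of the DP peak at Ythdc1, 57.1% at Fmr1 and 55.1% at Prrc2a. Ythdf2 shared 31 bases and was called in neither.

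Genes that define DP and iNKT cells met at shared places too. Of 34 DP identity genes 24 had a pair (34 pairs). In iNKT cells 22 pairs (64.7%) were lower and 2 higher, beside 39.1% and 2.52% over all pairs. In DP cells 1 was lower and 4 higher, beside 0.768% and 1.19% over all pairs. Rag1, the recombinase that opens receptor gene rearrangement, had 0.15 in DP (FDR 3.7e-05) and -3.87 in iNKT cells (FDR 3.2e-17) in the authors' deposited tables. The chromatin organiser gene Satb1 had 0.16 (FDR 0.03) and -2.38 in the authors' deposited tables, a second place called with opposite signs. The shared bases were 60.6% of the DP peak at Satb1 but 14.5% at Rag1, so most of the DP peak at Rag1 lay outside the shared place. Ikzf3 (Aiolos) shared 1200 bases and had 7.7-fold and 102-fold enrichment, with 0.26 and -4.81 between genotypes in the authors' deposited tables. Cd8b1 had 0.16 and -1.41, and Cd8a 0.11 and -2.59 in the authors' deposited tables. Rag2 (named Iftap) passed in neither. Sox4 and Lef1, with -2.45 and -3.97 in the authors' deposited table of iNKT cells, lie under mirrored pairs.

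Of 34 genes of iNKT development 18 had a pair (31 pairs). In iNKT cells 20 pairs (64.5%) were lower and 2 higher, beside 39.1% and 2.52% over all pairs. In DP cells 1 was called each way, beside 0.768% lower and 1.19% higher over all pairs. Both lists hold 6 of these genes (among them Bcl11b, Ets1, Lef1, Runx1 and Tcf7), and the median log2 ratio of enrichment was 1.44 here and 0.87 in the DP list. Myc had 15.7-fold and 37.6-fold enrichment, and -0.44 in DP and -1.84 in iNKT cells (FDR 1.7e-06) in the authors' deposited tables. Egr2, a factor induced by receptor signals, had 14.1-fold and 28.7-fold, with -3.86 in iNKT cells that did not pass (FDR 0.065) in the authors' deposited table. Runx3 had -1.83 (FDR 0.49) and -3.24 (FDR 5.0e-22) in the authors' deposited tables. Of 7 iNKT markers, Id2 and Il2rb had a pair, and both were lower in iNKT cells, by -2.25 and -1.60 in the authors' deposited table. Zbtb16, Tbx21 and Klrb1c had peaks in the iNKT table alone and so no pair. Hivep3 had 7 pairs, 3 of them called lower in iNKT cells. The authors' deposited tables name 3 of the 7 Edn2, among them 2 of the 3 called lower.

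Signalling genes gave counts of the same order, to be read beside 39.1% lower and 2.52% higher in iNKT cells over all pairs. T cell receptor signalling had 21 of 32 genes and 29 pairs, with 16 lower and 2 higher in iNKT cells and none called in DP cells. The phosphatase gene Dusp5 had -2.47 and the transcription factor gene Nfatc2 -4.88 in the authors' deposited table of iNKT cells, while Sos1 (named Arhgef33) had -3.67 and did not pass. Cytokine and JAK-STAT genes had 16 of 30 genes and 21 pairs, with 16 lower and 1 higher. The interleukin 4 receptor gene Il4ra had 6.03-fold and 253-fold enrichment, with 0.12 and -6.84 between genotypes in the authors' deposited tables. Socs3 had -3.07, Smad3 (named Aagab) -3.73 and Ifnar1 -5.63 in the authors' deposited table of iNKT cells. mTOR and PI3 kinase genes had 11 of 19 genes and 21 pairs, 15 of them lower. Pik3r1 had -4.17, Irs2 (named 9530052E02Rik) -5.12 and Foxo3 -6.43 in the authors' deposited table of iNKT cells. No pair of the cytokine or mTOR list was called in DP cells, where 0.768% and 1.19% of all pairs were, so that few calls or none come with lists of this size.

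AP-1 and CREB genes had 10 of 23 genes and 20 pairs, with the highest median log2 ratio of enrichment of the 12 lists (1.95, beside 0.52 over all pairs). In iNKT cells 15 of the 20 pairs were lower and none higher, beside 39.1% and 2.52% over all pairs. In DP cells none was lower and 1 higher, beside 0.768% and 1.19% over all pairs. Fosb had 10.8-fold and 307-fold enrichment in the authors' deposited tables, and log2 fold changes of 2.81 (FDR 0.64) and -6.15 (FDR 3.2e-33). Crtc3 had -3.88 and Crebbp -6.22 in the authors' deposited table of iNKT cells, and Bach2 -3.81 without passing. The Ep300 site shown above belongs to a gene of this list and of the chromatin list. It had -0.20 (FDR 0.64) in DP and -3.44 (FDR 0.021) in iNKT cells in the authors' deposited tables.

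Chromatin regulators had the most pairs, 108 in 33 of 36 genes. In iNKT cells 57 (52.8%) were lower and 5 higher, beside 39.1% and 2.52% over all pairs. In DP cells 2 were lower and 1 higher, beside 0.768% and 1.19% over all pairs. Within a gene the places differed. Of the 8 pairs of Kmt2a (2 of them, both uncalled, named Ttc36), 2 were lower, 1 higher (2.77, FDR 1.7e-06) and 5 uncalled in the authors' deposited table of iNKT cells. Of the 7 pairs of Kmt2d, 5 were lower, 1 higher (1.51) and 1 uncalled in the authors' deposited table of iNKT cells. The 5' UTR peaks of Arid1a had 7.36-fold and 369-fold enrichment but were not called in iNKT cells (-0.39, FDR 0.078), while its 3' UTR peaks were (-2.86, FDR 1.3e-81) in the authors' deposited tables. The chromatin remodeller gene Chd7 had -3.40 in the authors' deposited table of iNKT cells.

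The remaining lists were small. Cell death and p53 genes had 9 pairs in 6 of 20 genes. In iNKT cells 3 of the 9 (33.3%) were lower, beside 39.1% over all pairs. Among the 3 were Bcl2 (-4.12) and Bbc3, which encodes PUMA (-4.58), in the authors' deposited table. Cell cycle genes had 5 pairs in 5 of 22 genes, with Ccnd2 (-4.19) and E2f2 (-1.96) lower in the authors' deposited table of iNKT cells. These 2 of 5 pairs were the only ones called lower, a share close to the 39.1% over all pairs. Of the 19 markers of other thymus cells, Cd79b and Pecam1 had 1 pair each, and neither was called.

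The other sites shown above also differed. Syncrip had 0.38 (FDR 0.46) in DP and -5.35 (FDR 3.5e-08) in iNKT cells, and Dusp1 2.46 (FDR 0.44) and -0.995 (FDR 5.4e-06) in the authors' deposited tables. Yy1 had 0.41 (FDR 0.59) and 0.042 (FDR 0.76) in the authors' deposited tables and was called in neither. Of the 10 sites, 1 was called lower in both cell types, 4 in iNKT cells alone, and 5 in neither. Over all pairs, 39.1% were called lower in iNKT cells and 0.768% in DP cells.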

How the data were processed

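Immunoprecipitated and input libraries of DP and iNKT thymocytes (WT and Mettl3fl/flCD4-cre) were analysed from 1 peak table per cell type. The submitters' processing notes name the build mm10 and, for reads, STAR 2.6.0a, HOMER 4.9.1, FastQC 0.11.5, RSEM 1.3.0 and Trim Galore 0.6.5. Which program called the peaks, and on pooled libraries or not, is not given in the sources; the column names are those of exomePeak. The authors deposited, per the file headers, a fold enrichment of immunoprecipitate over input (a ratio), a p-value for each peak, scores that are log10 of p and FDR, and a log2 fold change between genotypes with its FDR. The deposited lists of gene symbols hold no values. Depth per library is unknown.

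Repeated rows (5 DP, 24 iNKT) were dropped. Pairs were mutual best partners by exonic bases held in common on 1 strand, with a minimum of 1. Percentiles are ranks within a table. The gene of a pair is the RefSeq gene (GRCm38.p6) of its strand that covers the shared bases, with preference for the gene the tables name. Intervals of shares are 95% Wilson intervals. Sequences are from RefSeq promoter windows. GGAC was searched on the strand of the peak alone. No test was run, and the FDR values are the authors'.

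Pairs were named by fixed ranks: the 6 most enriched in both tables, the 6 highest and 6 lowest ratios among well-overlapping strong peaks, 4 just inside the rule, 4 with the most shared bases, the 6 largest changes of the same and of opposite sign, 4 falls and 4 rises called in 1 cell type, 4 of differing class, 4 genes with the most pairs, up to 4 members of each list by enrichment and every writer. Marker genes of the 2 cell types, and the 5 sites whose sequences are shown, were named beyond these ranks, the sites after their values were seen. A few genes that these ranks name are not reported here. Members and lists were chosen with earlier results of these data known. Matching was tested on simulated peaks. Alternatives varied the overlap, peak strength, strand, repeats, mutual matching, thresholds and sign. Computation used pandas 2.3.3, matplotlib 3.10.9, numpy 2.4.6 and SciPy 1.17.1 under Python 3.11.15.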

Additional observations from a re-analysis of the deposited data

How the results depend on the processing

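Among the recomputed values, 47 moved beyond the interval of the reported value (or, for the number of pairs, by over 1.5 times) and 3 turned sign. The other 88 include values that a setting cannot change, such as medians under another FDR. With at least 50% of the shorter peak shared, the pairs held 31.6% of DP and 33.9% of iNKT peaks, with 41.8% lower in iNKT cells and a median log2 fold change there of -2.0. With 50% of both peaks, 1999 pairs held 14.9% and 15.9%, and the median log2 ratio of enrichment was 0.98, the length difference -30 nt and the same class 94.5%. There, 0.200% were lower in DP cells (median 0.128) and 45.4% in iNKT cells (median -2.17), and 23.1% of 26 pairs called in both had the same sign. With 80% of both, 410 pairs held 3.05% and 3.27%, with a ratio of 1.16, a length difference of 0 nt, the same class in 96.8%, 0.244% lower in DP cells (median 0.139), 49.0% lower and 1.95% higher in iNKT cells (median -2.54), and 16.7% of 6 with the same sign. With a peak FDR of at most 1e-05, the 3171 pairs held 43.0% and 33.01%, the length difference was -180 nt, the same class 88.1%, 1.14% and 1.70% were lower and higher in DP cells, and 51.5% lower in iNKT cells (median -2.47). Best partners that need not be mutual gave 36.4% of DP peaks, and a fold enrichment of at least 2 gave 35.8% of iNKT peaks. The median log2 ratio was 0.83 at equal length and 0.60 for peaks of 1 block. It turned sign as a difference in percentile (-7.62) and, in an alternative chosen after seeing the data, when each table was divided by its median (-0.30), beside medians of all peaks of 4.70 and 8.32. A differential FDR of 0.01 gave 0.320% lower and 0.491% higher in DP cells and 33.7% lower in iNKT cells. A change of at least 2-fold gave 0.021% and 0.384% in DP cells, and 0.0% of 5 pairs with the same sign. Turning the DP sign exchanged its shares (1.19% lower, 0.768% higher), with a median of -0.083. Ignoring strand, keeping repeated rows and the genomic span moved no value beyond these limits. Neither did leaving out places with a second pair on either strand, an alternative chosen after seeing the data. The intervals are over pairs, which are not replicates. No paired analysis was possible because the tables hold no values per replicate, and for the same reason no replicate was left out.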
